A study of Homo sapiens with 34 samples.

Results

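Keratins are the intermediate filament proteins of epithelial cells. Every keratin gene measured on Illumina expression arrays of 3 liver cancer cell lines was taken: all probes whose gene symbol is KRT followed by a number, with an optional letter, and no keratin-associated protein or pseudogene. The rule gave 58 probes of 49 genes, out of 20046 genes with a named probe, and used no measured value. The lines are HepG2, SNU398 and SNU475, which the study treats as models of hepatocellular carcinoma. Treated cells received 3 daily doses of 100 nM SGI-110 (72 h of exposure in all) and were harvested at days 3, 10, 17 and 24. For SNU475 there are 2 later harvests, at days 31 and 56. Untreated cells of each line, harvested before treatment, have day 0 in the labels, and no untreated cells of a later day are among the samples, so treatment and time in culture cannot be told apart. Each of the 17 groups holds 2 arrays, 34 in all, and this number limits the precision. Nothing in the labels ties the 2 arrays of a group to separate cultures, so p-values measure a spread that may be only technical. SGI-110, also called guadecitabine, is a dinucleotide of decitabine and deoxyguanosine that inhibits DNA methyltransferases, and the study asks what a transient treatment does to DNA methylation, accessibility and expression.

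Keratin filaments are built from obligate pairs of a type I (acidic) and a type II (basic) chain, and which pair a cell makes depends on its kind of epithelium. Hepatocytes make the simple pair of KRT8 (type II) and KRT18 (type I), and bile duct cells add KRT7 and KRT19. Other keratins are made in stratified epithelium, such as the mucosal pair of KRT4 and KRT13, or in hair, such as KRT34. Filaments are fastened to the cell membrane through desmosomes and plakin proteins. The genes lie in clusters: 22 of the 49 are on chromosome 12, where the type II genes and KRT18 lie, and 27 are on chromosome 17.

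Promoters are shown because DNA methyltransferases, which the drug inhibits, methylate cytosines in CG pairs. RefSeq (GRCh38.p14) gave the 250 bases before a start site for 33 of the 49 genes, in 37 windows. Of these genes, 11 passed the background filter described below, and the others were at background in every group. KRT7, KRT13, KRT18, KRT19, KRT23 and KRT80 had no window, so the numbers below do not describe them. These keratin windows held a median of 2 CG pairs (range 0 to 7), against a median of 11 over all 35114 windows. The letters TATAA, searched on both strands, were present in 27 of the 37 keratin windows (72.97%), against 18.93% of all windows. A match of letters is a description and not a binding site. Methylation was not analysed here. The windows of 4 genes follow, 5′ to 3′ on the gene's strand, with CG pairs and TATAA in capitals. KRT4 is shown for its fall in SNU475, KRT34 for its rise there, KRT10 for its presence in every group and KRT75 for the 7 CG pairs it holds.
KRT4 (chr12:52814117-52814366, minus strand): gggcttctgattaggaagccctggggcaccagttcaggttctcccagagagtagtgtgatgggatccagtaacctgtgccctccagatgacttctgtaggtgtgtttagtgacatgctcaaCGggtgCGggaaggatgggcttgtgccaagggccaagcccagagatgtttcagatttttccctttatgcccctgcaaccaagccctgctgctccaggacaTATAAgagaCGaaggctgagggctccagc
KRT34 (chr17:41382307-41382556, minus strand): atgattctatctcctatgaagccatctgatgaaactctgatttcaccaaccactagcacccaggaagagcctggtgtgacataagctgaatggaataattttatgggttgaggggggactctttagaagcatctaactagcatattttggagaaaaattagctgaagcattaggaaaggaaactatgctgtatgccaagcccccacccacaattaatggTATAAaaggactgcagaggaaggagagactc
KRT10 (chr17:40822615-40822864, minus strand): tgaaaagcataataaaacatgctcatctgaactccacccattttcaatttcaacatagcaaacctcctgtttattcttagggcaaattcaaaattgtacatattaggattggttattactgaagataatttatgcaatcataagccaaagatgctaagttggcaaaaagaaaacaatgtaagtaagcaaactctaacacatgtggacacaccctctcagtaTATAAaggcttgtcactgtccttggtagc
KRT75 (chr12:52434372-52434621, minus strand): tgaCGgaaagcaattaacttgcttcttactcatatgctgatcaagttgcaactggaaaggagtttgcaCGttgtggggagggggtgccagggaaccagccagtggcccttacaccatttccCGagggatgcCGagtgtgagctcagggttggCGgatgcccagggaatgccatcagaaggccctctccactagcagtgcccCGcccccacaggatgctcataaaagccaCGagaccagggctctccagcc
TATAA began 29 bases before the start in KRT4, 29 in KRT10 and 31 in KRT34, and these letters were absent from the KRT75 window. KRT34 and KRT10 had no CG pair and KRT4 had 3. The KRT8 window had 1 CG pair and no TATAA.

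Levels below are normalized log2 intensities, and a level is compared between groups for the same probe but never between probes. The background threshold was 6.97, taken from the dim end of all probes, and a group had to exceed it on both arrays for a probe to be above background there. Of the 58 keratin probes, 24 of 21 genes passed this filter in at least 1 group. A keratin that passed through a single line or a single group had to differ there. The other 34 probes (28 genes, among them the epidermal keratins KRT1, KRT5 and KRT14 and the gut keratin KRT20) stayed below it in all 17 groups, with arrays between 5.67 and 7.25. A change is called at an adjusted p under 0.05 in limma, adjusted over all 21000 probes tested. The probe with the highest mean stands for a gene and any second probe is given beside it. KRT8 and KRT18 have many processed copies in the genome, and whether their probes also read transcripts of such copies was not tested.

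The 34 arrays fall into 3 sets with common percentiles in the deposited values, and no group spans 2 of them. The first set holds the HepG2 and the untreated SNU398 arrays, the second the treated SNU398 arrays with SNU475 untreated and at day 3, and the third SNU475 from day 10 on. In SNU398 on every day and in SNU475 from day 10, set and treatment therefore cannot be told apart, and comparisons between days of 1 set are given beside them. All days of a line are compared with the same untreated arrays. Hepatocyte markers (ALB, AFP, APOA1, TTR, TF, SERPINA1) were above background 6 of 6 in HepG2 and 3 of 6 in untreated SNU398 and SNU475. Their summed intensity was far lower in the last 2 lines. Untreated it was 275742 to 279484 in HepG2, 1134.51 to 1235.36 in SNU398 and 1197.04 to 1205.59 in SNU475. Of 5 keratinocyte markers with a probe, KRT5, KRT14 and DSG3 were below background in every group. SFN was above it in every HepG2 group, on each treated day of SNU398 and at days 3 and 10 of SNU475, and was called higher than untreated at day 3 in all 3 lines, and IVL was above it in SNU398 at day 17. In these bulk samples, fewer cells that make a keratin and less of its RNA per cell cannot be told apart.

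KRT10 was the keratin above background in all 17 groups. Untreated HepG2 and SNU475 shared KRT8, KRT18, KRT19, KRT24 and KRT80 besides, and SNU398 had few others. In HepG2, 7 to 10 keratin genes were above background, depending on the day. In SNU398 the number was 1 to 3. In SNU475 it was 15 untreated and at day 3, and 10 at day 56. Over all probes with a symbol the share above background was 50.4% to 51.5% in HepG2, 51.0% to 52.4% in SNU398 and 52.2% to 52.8% in SNU475.

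**Figure D1:**
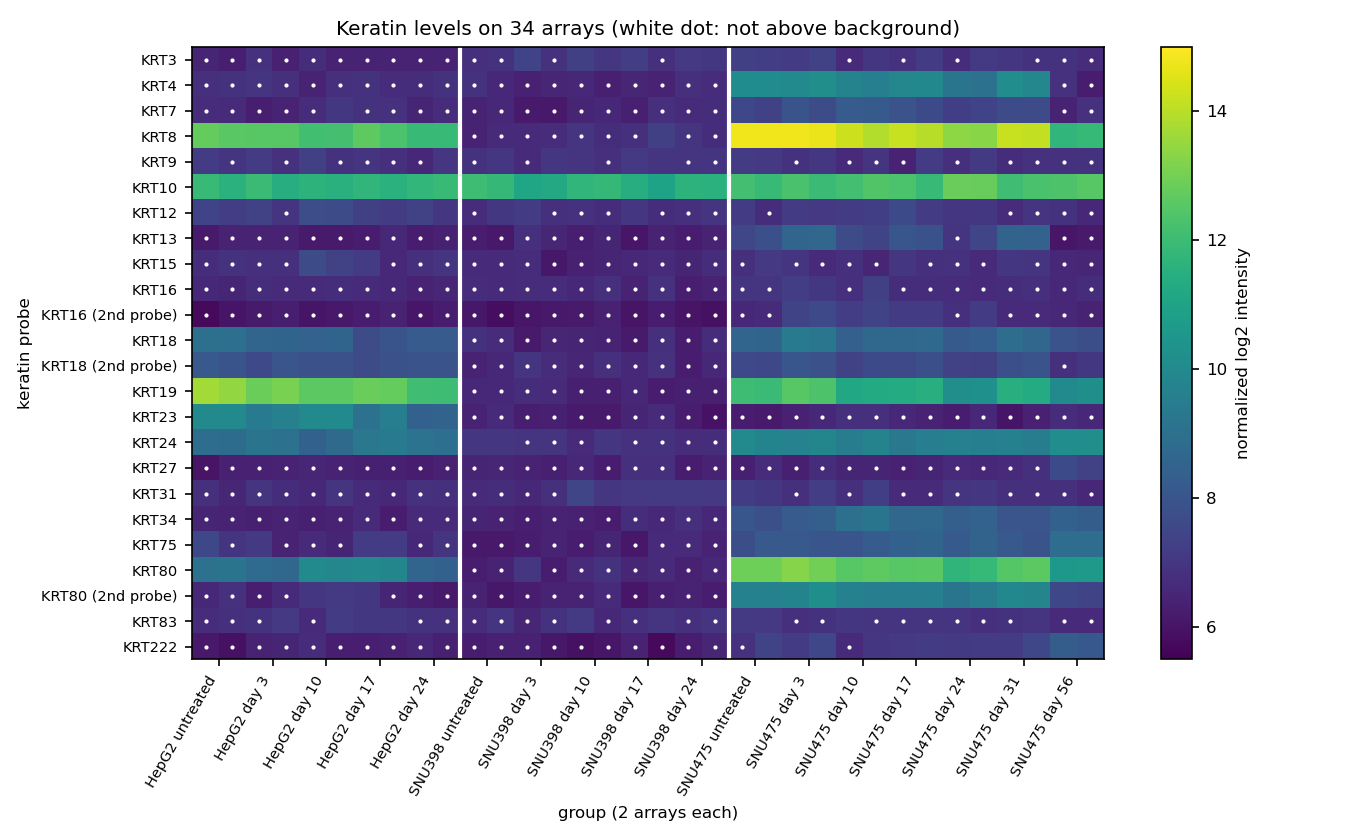
Heat map of the 24 keratin probes above background in at least 1 group (rows) on 34 arrays (columns, 2 per group, ordered by line and day). Colour is the normalized log2 intensity and a white dot marks an array not above the background threshold of 6.97. KRT10 has colour and no dot in every column, and the SNU398 columns are dotted for KRT8, KRT18 and KRT19 but for 1 KRT8 array at day 17.

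Untreated lines differed in the simple epithelial keratins first of all. KRT8, the type II chain of hepatocytes, read 12.74 and 12.56 in HepG2, 6.45 and 6.67 in SNU398, and 14.80 and 14.79 in SNU475. KRT19, a bile duct chain, read 13.68 and 13.45 in HepG2, 6.58 and 6.55 in SNU398, and 12.04 and 11.96 in SNU475. KRT18, the type I partner of KRT8, read 9.02 and 8.98 in HepG2, 6.91 and 6.72 in SNU398, and 8.61 and 8.57 in SNU475. The 3 genes were thus below background in untreated SNU398 and well above it in the other lines, with no overlap between any pair of lines. KRT8 was at least 51.1-fold higher in HepG2 than in SNU398 (adjusted p = 3.49e-24) and at least 226-fold lower in SNU398 than in SNU475 (adjusted p = 1.04e-26). KRT19 was at least 96.4-fold higher in HepG2 than in SNU398 (adjusted p = 1.6e-27) and 2.96-fold higher in HepG2 than in SNU475 (log2 difference 1.57 ± 0.12, adjusted p = 3.57e-12). KRT8 ran the other way between those lines, 4.43-fold lower in HepG2 than in SNU475 (log2 difference -2.15 ± 0.15). KRT18 was at least 4.07-fold higher in HepG2 than in SNU398 and 1.33-fold higher than in SNU475 (adjusted p = 0.0367), and its second probe gave at least 2.14-fold and 1.40-fold. The KRT18 difference between HepG2 and SNU475 was not called on either probe when arrays were scaled to a common median. KRT7, the other bile duct chain, was above background in SNU475 alone among untreated cells, at 7.55 and 7.34, at least 1.38-fold above each other line.

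Several keratins listed here under stratified epithelium, not all of them specific to it, separated the untreated lines as well. KRT80, a type II chain found in many epithelia, read 9.08 and 9.15 in HepG2, 6.21 and 6.41 in SNU398, and 12.89 on both SNU475 arrays. KRT80 was therefore lowest in SNU398 and 13.7-fold lower in HepG2 than in SNU475 (adjusted p = 1.63e-18). KRT4, a type II chain of moist mucosa, read 6.81 and 6.88 in HepG2, 6.88 and 6.54 in SNU398, and 10.12 and 10.13 in SNU475. Its type I partner KRT13 read 6.17 and 6.42 in HepG2, 6.21 and 6.14 in SNU398, and 7.53 and 7.81 in SNU475. Both chains of this mucosal pair were above background in SNU475 and in no other line, KRT4 at least 8.87-fold and KRT13 at least 1.62-fold above HepG2. KRT23, a type I chain, read 10.00 and 10.03 in HepG2, 6.43 and 6.66 in SNU398, and 6.27 and 6.18 in SNU475. It was above background in every HepG2 group and in no group of the other lines. KRT24, another type I chain, read 8.88 and 8.87 in HepG2, 6.99 and 6.996 in SNU398, and 10.04 and 9.80 in SNU475, 2.06-fold lower in HepG2 than in SNU475. SNU398 stood barely over the threshold for KRT24 when untreated and was above it in no treated group.

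Hair keratins were measured above background mainly in SNU475. KRT34, a type I hair chain, read 6.49 and 6.43 in HepG2, 6.50 and 6.44 in SNU398, and 8.05 and 7.84 in SNU475. KRT75, a type II chain of the hair follicle's companion layer, read 7.58 and 6.95 in HepG2, 6.14 on both SNU398 arrays, and 7.79 and 8.17 in SNU475. KRT34 was at least 1.96-fold and KRT75 at least 1.63-fold higher in SNU475 than in HepG2. In the list of hair and inner root sheath keratins, 18 of 23 genes with a probe were below background everywhere. Of the 24 keratin probes, 11 were called between HepG2 and SNU398 (10 higher in HepG2), where 56.5% of all probes were called. Between HepG2 and SNU475 19 were called (4 higher in HepG2), where 56.8% of all probes were. Between SNU398 and SNU475 16 were called, all lower in SNU398, where 58.4% of all probes were. The median keratin difference of SNU398 from SNU475 was -0.89, against 0.02 over all probes. KRT4, KRT7, KRT13, KRT34, KRT222, KRT27 and both KRT16 probes passed the filter through SNU475 alone, and few probes passed it in any SNU398 group. The direction of the calls against SNU475 and this median therefore follow in large part from the filter. The lines lie in different sets of arrays except HepG2 and untreated SNU398.

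In treated HepG2, KRT19 was called lower than in untreated cells on every day, and KRT18 at days 10, 17 and 24 on 1 of its probes. KRT8 was lower at days 10 and 24 and KRT23 at days 3, 17 and 24, and KRT80 was first higher and then lower. All HepG2 arrays lie in 1 set. KRT19 read 13.68 and 13.45 untreated, 12.86 and 13.08 at day 3, 12.60 and 12.62 at day 10, 12.84 and 12.75 at day 17, and 12.08 and 12.04 at day 24. Every treated array was below both untreated arrays. The log2 fold changes of KRT19 were -0.60 ± 0.12 at day 3, -0.95 ± 0.12 at day 10, -0.77 ± 0.12 at day 17 and -1.51 ± 0.12 at day 24 (adjusted p = 1.42e-10), a 2.84-fold fall at the last day. KRT19 also fell between days of treatment, by 0.36 at day 10 relative to day 3 and by 0.55 at day 24 relative to day 10 on the log2 scale.

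KRT8 in HepG2 read 12.74 and 12.56 untreated, 12.54 and 12.53 at day 3, 12.12 and 12.20 at day 10, 12.65 and 12.32 at day 17, and 11.89 and 11.94 at day 24. It was lower at days 10 (-0.49 ± 0.15, adjusted p = 0.0133) and 24 (-0.73 ± 0.15, adjusted p = 0.000495), and at day 17 the groups overlapped. KRT18 read 9.02 and 8.98 untreated, 8.61 and 8.55 at day 3, 8.48 and 8.55 at day 10, 7.65 and 7.96 at day 17, and 8.24 on both arrays at day 24. KRT18 was lowest at day 17 (-1.19 ± 0.17, adjusted p = 2.24e-06) and was lower at days 10 and 24 as well. The second KRT18 probe gave -0.32 ± 0.15 at day 17 (adjusted p = 0.14) and was called on no day, so the KRT18 calls rest on 1 probe. KRT7 was above background in no HepG2 group, with 1 array over the threshold, at day 10.

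KRT23 in HepG2 read 10.00 and 10.03 untreated, 9.40 and 9.65 at day 3, 10.03 and 10.06 at day 10, 9.05 and 9.57 at day 17, and 8.44 and 8.54 at day 24. It was thus lower at days 3 and 17, not called at day 10, and 2.88-fold lower at day 24 (-1.52 ± 0.15, adjusted p = 1.02e-08). Between treated days KRT23 rose by 0.52 ± 0.15 at day 10 relative to day 3 and changed by -1.55 ± 0.15 at day 24 relative to day 10. KRT80 read 9.08 and 9.15 untreated, 8.82 and 8.70 at day 3, 10.01 and 9.91 at day 10, 9.97 and 9.85 at day 17, and 8.61 and 8.43 at day 24. The arrays of days 10 and 17 lay above, and those of days 3 and 24 below, both untreated arrays. Against untreated cells KRT80 was higher at day 10 (0.85 ± 0.16, adjusted p = 0.000122) and day 17 (0.79 ± 0.16) and lower at day 24 (-0.59 ± 0.16, adjusted p = 0.00627), and the day 3 difference of -0.35 ± 0.16 did not pass. KRT80 was 2.30-fold higher at day 10 than at day 3 and 2.71-fold lower at day 24 than at day 10, and its second probe, above background at day 10 alone, was called in the same directions in both.

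The remaining HepG2 keratins were called against untreated cells on 1 day or on none. The second KRT16 probe was called higher at day 17 but was at background in every HepG2 group, and no fold is given. KRT24 read 8.88 and 8.87 untreated and 9.26 and 9.42 at day 17, its highest day (0.46 ± 0.14). KRT15, a keratin of basal epithelial cells, was above background at day 10 alone, at 7.65 and 7.33, at least 1.43-fold over untreated. KRT15 passed the filter through that group alone, so it had to be higher there. KRT75 was above background on 1 of 2 untreated arrays and on neither at day 10, where it was called lower and no fold is given. KRT12, a corneal keratin, was at least 1.46-fold higher at day 10 than at day 3 and 1.42-fold lower at day 24 than at day 10, the second of which was not called with median scaling or the deposited values. KRT10 was called on no day, with arrays from 11.40 to 11.98. In counts against untreated HepG2, 2 of 24 keratin probes were called at day 3 (0 higher), where 13.3% of all probes were called. At day 10 there were 6 (2 higher), beside 31% of all probes. At day 17 there were 6 (3 higher), beside 24.3%, and at day 24 there were 5 (0 higher), beside 24.2%. Between treated days 8 were called at day 10 against day 3, beside 26.2%, and 7 at day 24 against day 10, beside 21.5%. The 2 to 8 of 24 keratin probes called are shares near those of all probes. Median keratin changes against untreated HepG2 lay between -0.05 and 0.09.

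**Figure D2:**
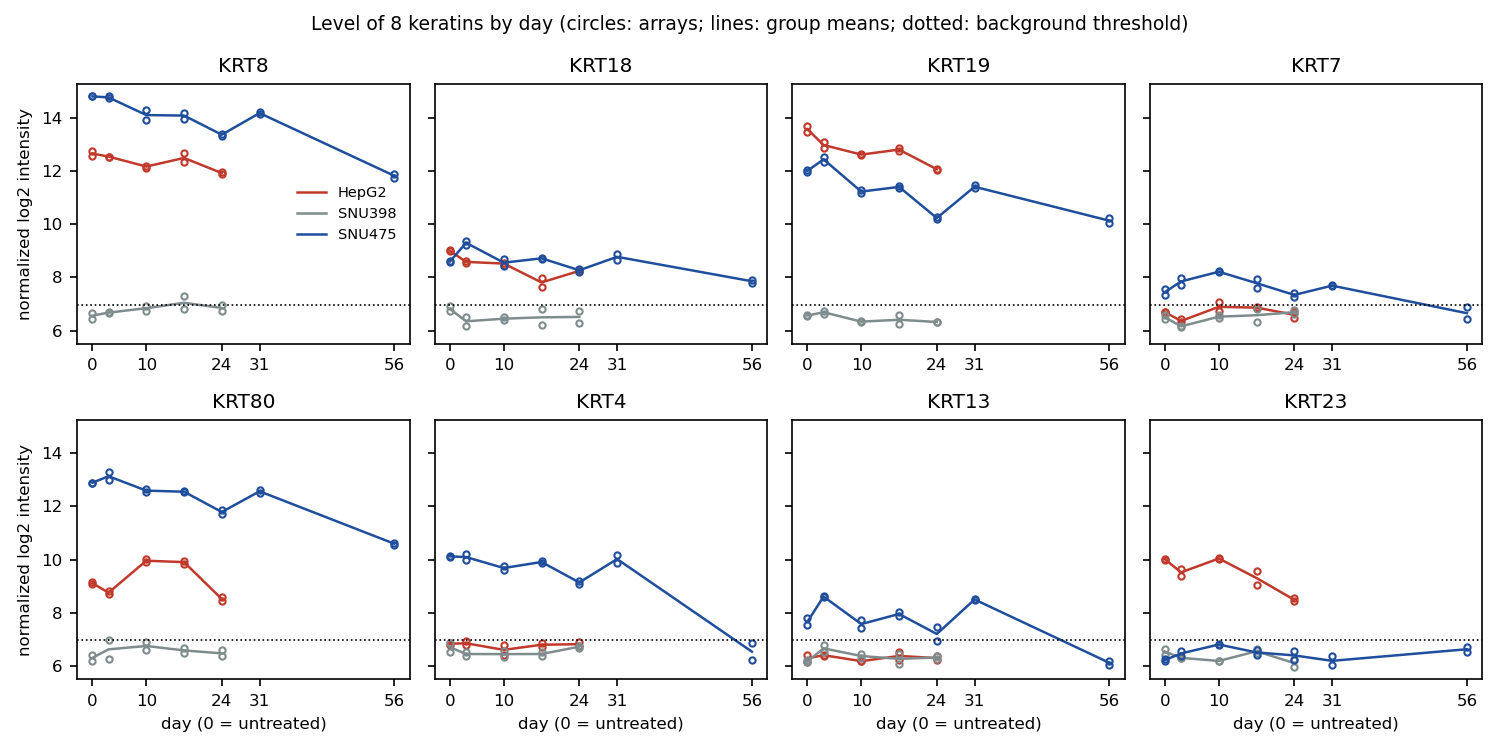
Normalized log2 intensity (y) of 8 keratins by day (x, 0 is untreated) in HepG2, SNU398 and SNU475, with circles for single arrays, lines for group means and a dotted line at the background threshold. KRT8, KRT18 and KRT19 lie over the line in HepG2 and SNU475 and under it in SNU398 but for 1 KRT8 array at day 17, and in SNU475 KRT4 and KRT13 reach the background line at day 56.

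SNU398 had KRT10 as its 1 keratin well above background on every day, and its level was lower than untreated on some treated days. KRT10, the type I chain of the outer epidermal layers, read 12.05 and 11.84 untreated, 11.10 and 11.23 at day 3, 11.76 and 11.83 at day 10, 11.42 and 11.005 at day 17, and 11.65 and 11.58 at day 24. It was lower than untreated at day 3 (-0.79 ± 0.18, adjusted p = 0.000928) and day 17 (-0.74 ± 0.18, adjusted p = 0.00168). The untreated arrays belong to another set, but within the set KRT10 was 1.55-fold higher at day 10 than at day 3 (0.63 ± 0.18, adjusted p = 0.00626). KRT31, a hair cortex keratin, read 6.68 and 6.74 untreated and stood just over the threshold from day 10 on, at 7.48 and 7.02, 7.08 and 7.11, and 7.12 and 7.09. It was called at day 10, at least 1.21-fold higher.

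The simple epithelial keratins stayed at background in SNU398 through day 24. KRT8 lay between 6.45 and 7.29 on its 10 arrays, with 1 array at day 17 over the threshold. KRT19 lay between 6.24 and 6.74 and KRT18 between 6.17 and 6.91, with no array over it. Calls on such probes (KRT8 higher at day 17, KRT18 lower and KRT13 higher at day 3, KRT80 higher at day 10) compare groups that are not above background, and no fold is given. Against untreated SNU398, 3 of 24 keratin probes were called at day 3 (30.8% of all probes), 2 at day 10 (32.4%) and 2 at day 17 (31.6%). At day 24 limma called 0, with 4 at an unadjusted p under 0.05, where 17.9% of all probes were called. Median scaling gave 1 call at day 24 and the deposited values on the log2 scale gave 2. Without untreated replicate 1, 2 calls were made over all 4 days, against 7 with it. Within the set 3 were called at day 10 against day 3 (31.6% of all probes) and 1 at day 24 against day 10 (23.3%). Nearly all of the 24 probes passed the filter through HepG2 or SNU475 and were at background in SNU398, so few calls could be made there and the shares are not comparable.

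SNU475 had the most keratins above background, and the keratins called at day 3 were higher than untreated. At day 3, in the same set as the untreated arrays, 4 of 24 keratin probes were called and all 4 were higher, where 3.19% of all probes were called. KRT13 read 8.60 and 8.63 at day 3, against 7.53 and 7.81 untreated (0.95 ± 0.16, 1.93-fold, adjusted p = 0.000331). KRT18 read 9.36 and 9.23, against 8.61 and 8.57 (0.71 ± 0.17, adjusted p = 0.0115), with 0.36 ± 0.15 on its second probe, which was not called. KRT19 read 12.52 and 12.34, against 12.04 and 11.96 (0.43 ± 0.12, adjusted p = 0.0464), a call that was lost when replicate number was added to the fit. The fourth was the second probe of KRT16, a keratin of wounded epidermis, at 7.46 and 7.60 against 6.54 and 6.68, at least 1.47-fold higher, while the brighter KRT16 probe was not called. This second probe passed the filter through treated SNU475 groups alone (days 3, 10 and 17). It therefore had to be higher at day 3 and adds no support to the count. The groups did not overlap for any of the 4, and the median keratin change was 0.19, against 0.00 over all probes.

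In SNU475 KRT19 was called lower than untreated on each day from day 10, and KRT34 was called higher at days 10, 17, 24 and 56 but not at day 31. KRT34 read 8.05 and 7.84 untreated, 8.22 and 8.39 at day 3, 8.999 and 9.20 at day 10, 8.64 and 8.66 at day 17, 8.36 and 8.47 at day 24, 8.01 and 7.99 at day 31, and 8.46 and 8.30 at day 56. Its highest day was day 10, 2.23-fold over untreated (1.16 ± 0.13, adjusted p = 1.09e-07). Within the third set it was then lower at day 24 than at day 10 (-0.68 ± 0.13, adjusted p = 0.000747) and lower at day 31 than at day 24 (-0.41 ± 0.13). KRT7 also peaked at day 10, at 8.24 and 8.18 against 7.55 and 7.34 untreated (0.77 ± 0.16, adjusted p = 0.000761).

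KRT19 in SNU475 read 12.04 and 11.96 untreated, 12.52 and 12.34 at day 3, 11.15 and 11.29 at day 10, 11.34 and 11.45 at day 17, 10.19 and 10.26 at day 24, 11.45 and 11.35 at day 31, and 10.04 and 10.22 at day 56. KRT8 read 14.80 and 14.79 untreated, 14.79 and 14.72 at day 3, 14.28 and 13.91 at day 10, 14.19 and 13.96 at day 17, 13.40 and 13.32 at day 24, 14.20 and 14.14 at day 31, and 11.74 and 11.88 at day 56. From day 10 on, every treated array of both genes was below the untreated arrays, and days 24 and 56 were the low points. At day 24 KRT19 was 3.41-fold lower than untreated (-1.77 ± 0.12, adjusted p = 4.61e-12) and KRT8 2.71-fold lower (-1.44 ± 0.15, adjusted p = 1.52e-08). Within the set, at day 24 relative to day 10, KRT19 changed by -0.99 ± 0.12 and KRT8 by -0.74 ± 0.15.

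The other keratins named for SNU475 followed several courses over the days. KRT18 read 8.61 and 8.57 untreated, 9.36 and 9.23 at day 3, 8.41 and 8.69 at day 10, 8.69 and 8.74 at day 17, 8.20 and 8.33 at day 24, 8.89 and 8.65 at day 31, and 7.92 and 7.79 at day 56. It was highest at day 3 and lowest at day 56. KRT4 read 10.12 and 10.13 untreated, 10.00 and 10.20 at day 3, 9.75 and 9.62 at day 10, 9.88 and 9.94 at day 17, 9.19 and 9.09 at day 24, 10.16 and 9.89 at day 31, and 6.86 and 6.23 at day 56. Its arrays stayed between 9.09 and 10.20 to day 31 and neither of the day 56 arrays was above background. KRT13 read 7.53 and 7.81 untreated, 8.60 and 8.63 at day 3, 7.73 and 7.44 at day 10, 8.03 and 7.89 at day 17, 6.94 and 7.47 at day 24, 8.51 and 8.50 at day 31, and 6.06 and 6.19 at day 56. Days 3 and 31 were its high points, and at day 24 it was above background on 1 of 2 arrays. KRT7 read 7.55 and 7.34 untreated, 7.98 and 7.71 at day 3, 8.24 and 8.18 at day 10, 7.94 and 7.62 at day 17, 7.25 and 7.42 at day 24, 7.67 and 7.70 at day 31, and 6.44 and 6.87 at day 56. KRT24 read 10.04 and 9.80 untreated, 9.70 and 9.86 at day 3, 9.51 and 9.74 at day 10, 9.31 and 9.56 at day 17, 9.66 and 9.59 at day 24, 9.67 and 9.51 at day 31, and 10.16 and 10.18 at day 56. KRT7 was highest at day 10 and below background at day 56, while KRT24 was above background on every day. KRT75 read 7.79 and 8.17 untreated, 8.14 and 8.04 at day 3, 8.02 and 8.25 at day 10, 8.45 and 8.56 at day 17, 8.19 and 8.51 at day 24, 8.14 and 7.93 at day 31, and 8.88 and 8.91 at day 56. KRT222 read 6.86 and 7.45 untreated, 7.21 and 7.52 at day 3, 6.67 and 7.01 at day 10, 7.09 and 7.14 at day 17, 7.12 and 7.20 at day 24, 7.20 and 7.53 at day 31, and 8.30 and 8.10 at day 56. Both had their highest arrays at day 56, with no overlap with any other day.

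Most keratins called between days 24 and 31 were higher at day 31. Relative to day 24, a comparison added after the values were seen, 10 of 24 keratin probes were called at day 31 (8 higher), where 27.2% of all probes were called. KRT19 was 2.26-fold higher (1.18 ± 0.12), KRT8 1.76-fold, KRT4 1.84-fold and KRT80 1.71-fold higher at day 31 than at day 24. KRT13 read 8.51 and 8.50 at day 31, against 6.94 and 7.47 at day 24, at least 2.43-fold higher (adjusted p = 6.13e-07). KRT10 ran the other way, 12.07 and 12.28 at day 31 against 12.83 and 12.81 at day 24, its highest day in SNU475 (0.77 ± 0.18 over untreated). In counts against untreated SNU475, 6 keratin probes were called at day 10 (4 higher), where 18.2% of all probes were called. There were 5 at day 17 (2 higher), beside 12.7%, then 8 at day 24 (3 higher), beside 31.4%, and 3 at day 31 (1 higher), beside 12.8%. The higher ones at days 10, 17 and 24 include the second KRT16 probe, which passed the filter through treated SNU475 groups alone. Within the set, 7 were called at day 24 against day 10 (1 higher), where 9.85% of all probes were.

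At day 56 the mucosal keratins and KRT7 were at background in SNU475, and KRT8 and KRT80 were at their lowest. KRT19 was low as well, with arrays that overlapped those of day 24. KRT4 read 6.86 and 6.23 at day 56, against 10.12 and 10.13 untreated. It was no longer above background, at least 8.87-fold lower than untreated (adjusted p = 5.57e-17) and, within the set, at least 6.55-fold lower than day 10 (9.75 and 9.62, adjusted p = 1.4e-15). Its partner KRT13 read 6.06 and 6.19 at day 56, at least 1.62-fold lower than untreated, at least 1.52-fold lower than day 10 and at least 2.89-fold lower than day 31. Both chains of the mucosal pair were thus at background on both day 56 arrays.

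KRT8 at day 56 was 7.92-fold lower than untreated (-2.99 ± 0.15, adjusted p = 5.32e-16) and 4.87-fold lower than day 10 (-2.28 ± 0.15, adjusted p = 2.98e-13). KRT80 read 12.89 on both untreated arrays, 13.28 and 12.99 at day 3, 12.54 and 12.65 at day 10, 12.53 and 12.57 at day 17, 11.73 and 11.85 at day 24, 12.51 and 12.62 at day 31, and 10.55 and 10.64 at day 56. The day 56 arrays were the lowest, 4.90-fold below untreated (-2.29 ± 0.16, adjusted p = 8.71e-13) and 3.99-fold below day 10 (-1.997 ± 0.16). The second KRT80 probe gave -2.17 ± 0.17 and -2.13 ± 0.17. KRT19 was 3.66-fold lower than untreated (-1.87 ± 0.12) and 2.13-fold lower than day 10 (-1.09 ± 0.12). KRT7 was at background, at 6.44 and 6.87, at least 1.38-fold lower than untreated and at least 2.35-fold lower than day 10. KRT18 moved less than its partner KRT8: it read 7.92 and 7.79 at day 56, against 8.61 and 8.57 untreated (-0.74 ± 0.17, second probe -0.66 ± 0.15), but these are changes of different probes and the difference between them was not tested.

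A smaller group of keratins was higher at day 56. KRT222, a keratin-like gene, read 8.30 and 8.10 at day 56, against 6.86 and 7.45 untreated, at least 1.99-fold higher (adjusted p = 6.99e-05) and at least 2.31-fold higher than day 10. KRT27, of the inner root sheath, was above background at day 56 alone among all 17 groups, at 7.62 and 7.35, at least 1.42-fold over untreated. KRT27 passed the filter through this group alone, so it had to be higher there and lends no support to a rise. KRT75 read 8.88 and 8.91, against 7.79 and 8.17 untreated (0.92 ± 0.20, 1.89-fold, adjusted p = 0.000474), and was 1.70-fold higher than day 10. KRT24 at 10.16 and 10.18 was not called against untreated cells (0.25 ± 0.14) but was 1.46-fold higher than at day 10. KRT34 was 1.35-fold higher than untreated and 1.65-fold lower than at day 10. Its calls against untreated cells at days 24 and 56 were lost with the deposited values on the log2 scale. KRT10, at 12.34 and 12.52, was called against neither. KRT7 and KRT27 are named here after their values were seen.

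**Figure D3:**
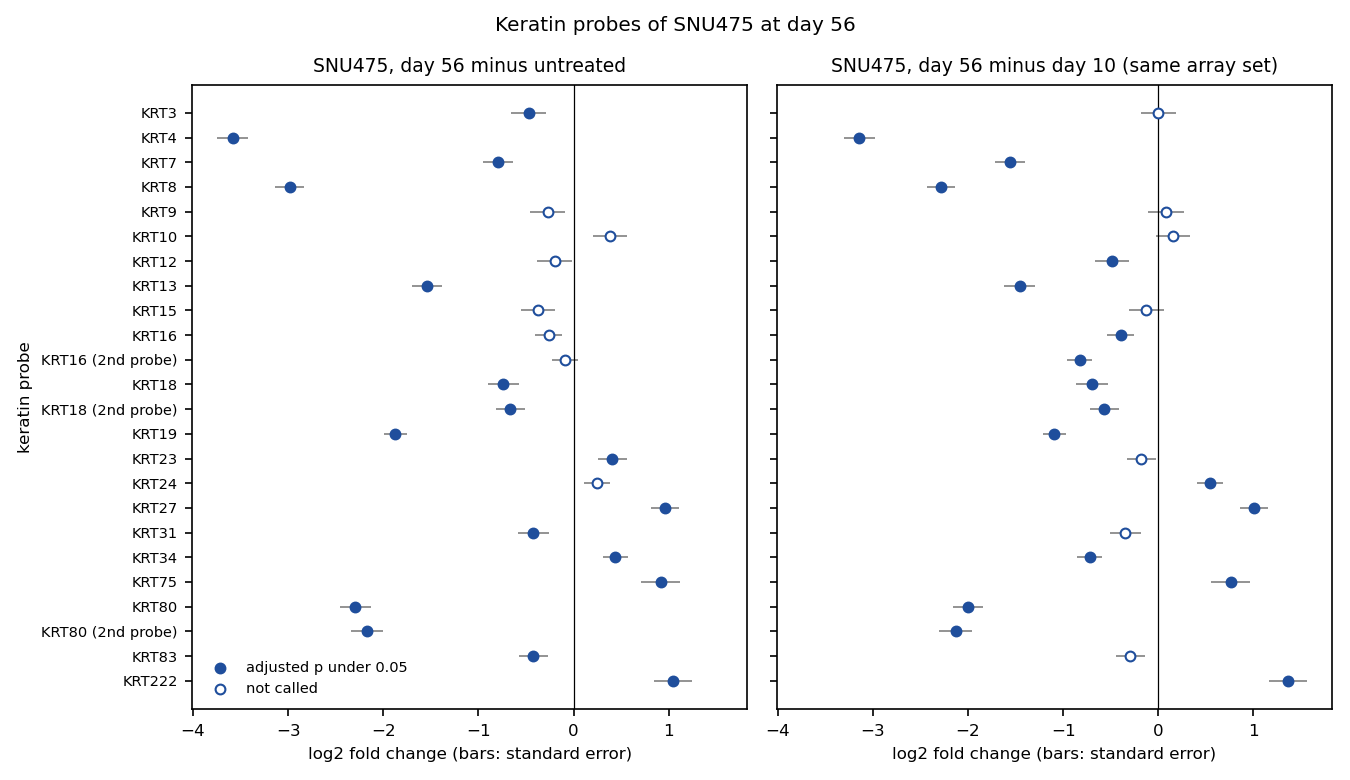
Log2 fold change (x, bars are standard errors of the fit) of each of the 24 keratin probes (rows) in SNU475 at day 56 minus untreated (left) and minus day 10 (right), filled where the adjusted p is under 0.05. KRT4, KRT8, KRT80, KRT13 and KRT19 lie to the left in both panels and KRT222, KRT27 and KRT75 to the right, while KRT34 changes side.

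In counts, 17 of 24 keratin probes (15 genes) were called at day 56 against untreated cells, where 45.3% of all probes were called. Of these 12 were lower, against 24.8% of all probes called lower, and 5 were higher. Among the lower, KRT3, KRT31 and KRT83 had untreated means of 7.28, 7.10 and 7.10, just over the threshold, and were at background at day 56. Among the higher, KRT23 was at background in both groups and KRT27 passed the filter through day 56 alone. The median keratin change was -0.40, against -0.05 over all probes. Against day 10, within the set, 17 were called (13 lower), where 42.5% of all probes were called and 23.9% called lower, with a median of -0.44 against -0.05. Against day 31, a comparison added after the values were seen, 15 were called (9 lower), where 42.8% of all probes were. Of 5 simple epithelial keratins with a probe KRT20 was below background everywhere, and the 4 tested (KRT7, KRT8, KRT18 and KRT19) were lower in each of the 3 comparisons. Of 20 keratins listed under stratified epithelium with a probe 11 were tested. Against untreated, 1 was higher (KRT23, at background) and 4 lower (KRT4, KRT13, KRT80 and KRT3, the last just over the threshold untreated). Of 5 tested hair and inner root sheath keratins 3 were higher (KRT27, KRT34 and KRT75) and 2 lower (KRT31 and KRT83).

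Genes other than keratins also differed in SNU475 at day 56. Of 205 probes above background in every SNU475 group to day 31 and on no array of another line, 162 were still above it at day 56. Of 397 probes above background in every HepG2 group and on no SNU475 array to day 31, 51 were above it at day 56, and for SNU398 the number was 96 of 312. These probes were chosen on the groups to day 31, and no other day was left out in the same way. The counts therefore cannot show that day 56 stood apart from the other days. Of 5 fibroblast markers all were above background in every SNU475 group, and their summed intensity was 38803.1 to 39234.7 at day 56, against 23480.3 to 25002.4 untreated and 33225.2 to 36712.6 at day 10. Per gene, COL1A1, DCN, LUM and PDGFRB were called higher than untreated and COL3A1 lower, with a median log2 change of 2.53, and the same calls were made against day 10 (median 1.02). Of 6 mesenchymal markers all 6 were above it at day 56 and untreated, with sums of 56937.7 to 60831.4 at day 56 and 61613 to 63628.4 untreated. Per gene, FN1, SNAI2 and TWIST1 were called higher and CDH2 lower than untreated (median log2 change 0.47), and against day 10 5 of 6 were higher and CDH2 lower (median 1.08). All 5 bile duct or progenitor markers were above background at both, with sums of 28481 to 29862.2 at day 56 and 38456 to 38529.1 untreated. Per gene, SPP1 and PROM1 were called higher and SOX9 and CD24 lower than untreated (median log2 change 0.01). Against day 10 SPP1 and PROM1 were higher and SOX9, EPCAM and CD24 lower (median -0.55). The keratinocyte markers were 0 of 5 above background at both, and of 5 blood cell markers CD14 alone was, with PTPRC and CD3E below background in every group. The part of the other markers in the keratin result was not tested. VIM, the mesenchymal filament gene, read 15.43 and 15.24 at day 56, against 15.01 and 15.15 untreated (0.26 ± 0.13, adjusted p = 0.108), and was higher than at day 10 (0.65 ± 0.13, adjusted p = 0.000125).

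Most genes that fasten keratin filaments were lower in SNU475 at day 56 as well. Of 19 genes of desmosomes, hemidesmosomes and plakins with a probe 14 were tested. Of these 8 were lower than untreated, where 24.8% of all probes were, and 2 were higher, with a median change of -0.60, against -0.05 over all probes. PKP2, a desmosomal plaque protein, read 7.90 and 7.86 at day 56, against 9.83 and 9.91 untreated (-1.99 ± 0.14, adjusted p = 1.51e-12). PPL, the plakin periplakin, read 7.34 and 7.22, against 9.27 and 9.23 (-1.97 ± 0.13). DSP, the desmoplakin that binds keratin directly, read 9.33 and 9.40, against 10.21 and 10.26 (-0.87 ± 0.16), and JUP, plakoglobin, 9.82 and 9.76, against 10.81 and 10.57 (-0.90 ± 0.14). All 4 were also lower than at day 10. The desmosomal cadherin DSC2 was higher, at 8.65 and 8.52 against 7.53 and 7.28 (1.18 ± 0.14). At day 24 these genes were closer to untreated SNU475, with 2 of 14 higher and 4 lower (31.4% of all probes were called) and a median of -0.03.

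In HepG2 at day 24, 3 of the 14 anchor genes were higher than untreated (JUP, DST and DSC2) and 5 lower, where 24.2% of all probes were called. In SNU398 at day 24 PPL alone was called, where 17.9% of all probes were. Of 13 other intermediate filament genes tested, SNU475 at day 56 had 3 higher (DES, PRPH and NES) and 5 lower (SYNM, NEFL, NEFM, BFSP1 and LMNB1), where 45.3% of all probes were called. Of 7 epithelial transcription and splicing factors tested, ELF3 and EHF were lower at day 56, near the 24.8% of all probes called lower. ELF3, an epithelial ETS factor, read 8.41 on both day 56 arrays, against 11.15 and 11.02 untreated (-2.67 ± 0.12, adjusted p = 7e-17), and was lower than at day 10 (-1.43 ± 0.12, adjusted p = 9.62e-11). It was called lower in SNU475 at days 10, 17, 24 and 31 too.

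**Figure D4:**
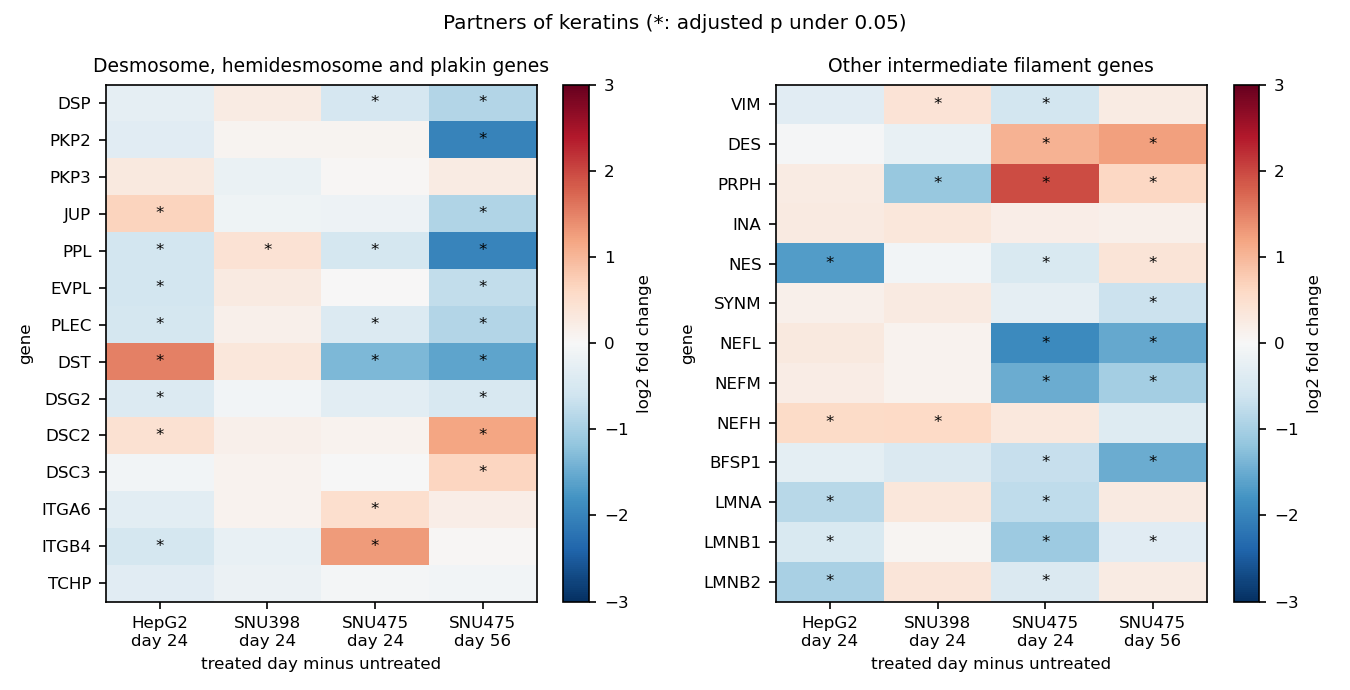
Log2 fold change (colour) of 14 desmosome, hemidesmosome and plakin genes (left, rows) and 13 other intermediate filament genes (right, rows) on treated days minus untreated (columns), with an asterisk where the adjusted p is under 0.05. The SNU475 day 56 column has 8 anchor genes called lower and 2 called higher, and the SNU398 day 24 column has 1 called.

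Changes from untreated cells differed between lines by a call for some keratin probes. The SNU398 changes cross sets of arrays on every day and the SNU475 changes from day 10. Set, time and treatment therefore cannot be told apart in these differences. The mean log2 change over days 3, 10, 17 and 24 was compared between lines as 1 contrast. Between HepG2 and SNU398 3 of 24 keratin probes were called, where 33.5% of all probes were. Between HepG2 and SNU475 6 were called, where 23% of all probes were, and between SNU398 and SNU475 9, where 33.3% were. No count was far above the share of all probes. Several of these calls set a line against one where the probe was at background, such as KRT23 in SNU475 and KRT8 in SNU398, and no size is given for them. KRT18 had mean changes of -0.71 in HepG2 and 0.12 in SNU475, both above background on every day, a difference of -0.83 ± 0.19 (adjusted p = 0.00132). Its second probe gave -0.27 ± 0.17 and was not called (adjusted p = 0.278). KRT80 had mean changes of 0.17 in HepG2 and -0.37 in SNU475, a difference of 0.54 ± 0.18 (adjusted p = 0.0262). Its second probe, mostly at background in HepG2, gave -0.03 ± 0.19 and was not called. KRT19 had mean changes of -0.96 in HepG2 and -0.68 in SNU475, and their difference was not called.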

How the data were processed

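The authors deposited 1 linear intensity per probe and array, for 47230 probes on 34 arrays. No source used here states how the authors normalized them. A deposited table with 72 signal and detection columns was not used because no label ties its array barcodes to samples. The deposited medians were 182.92 to 183.01, 172.65 to 172.73 and 156.27 to 156.33 in the 3 sets of arrays. Per the labels' protocols, RNA was extracted with Trizol, cleaned on RNeasy columns and labelled with a MessageAmp kit.

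Here the deposited intensities were background-corrected with limma's normexp (offset 50), quantile normalized and put on the log2 scale. The threshold of 6.97 adds to the mode of the sorted and averaged arrays (6.48) the 95% normal quantile of the spread below it (0.298). Gene symbols came from the platform annotation, updated through Entrez identifiers with RefSeq: 30113 probes have 1 symbol, 8 several and 17109 none listed, and 30074 of the first matched. Tested were the 21000 probes with 1 symbol above background in a group. KRT6A, KRT6B, KRT17, KRT81, KRT82 and KRT86 were not analysed here.

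A model with 17 group means was fitted in limma 3.58.1 (R 4.3.3; 17 residual and 11.03 prior degrees of freedom), and 28 comparisons were tested two-sided with Benjamini-Hochberg adjustment within each. "At least" folds set the brighter group's mean against the higher of threshold and dim value per array. Plus-minus values beside changes are standard errors, n = 2 arrays per group. Replicates correlated with r of 0.9906 to 0.9947 across tested probes, which are not independent, and 0 pairs were identical. The fit was tested on simulated data. Keratins with values in every array were those above background in all groups, or called with a log2 change of at least 1 against untreated cells or between untreated lines. Members and lists were chosen with earlier results of these data known. Alternatives were median scaling, no background correction, no filter, 1 probe per gene, a replicate block, separate fits per line and leaving out arrays, with the deposited log2 values, the count without day 56 and the comparisons of day 31 with day 24 and day 56 with day 31 chosen after seeing the data.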

Additional observations from a re-analysis of the deposited data

Results flagged for a closer look

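Differences in the mean log2 change over days 3 to 24 are given here where the test of the difference between 2 lines passed in limma. Between HepG2 and SNU398 the differences were -0.83 for KRT19 (adjusted p = 2.45e-05), -0.71 for KRT75 (adjusted p = 0.0173) and -0.67 for KRT8 (adjusted p = 0.0027). All 3 genes are below background in SNU398 apart from 1 KRT8 array, so the sizes here and in other contrasts with a line at background are of the fit only.

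Between HepG2 and SNU475 the differences were -0.999 for KRT23, -0.83 for KRT18, -0.73 for KRT75, -0.67 for KRT34, 0.54 for KRT80 and 0.45 for KRT24. KRT23 is below background in SNU475 and KRT34 in HepG2. The second KRT18 probe gave -0.27 and was not called. KRT24 had mean changes of 0.14 in HepG2 and -0.30 in SNU475, and was above background on every day in both.

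Between SNU398 and SNU475 the differences were 1.02 for KRT8, 0.68 for KRT80, 0.55 for KRT19, 0.51 for KRT31, -0.48 for KRT18, -0.51 for the second KRT16 probe, -0.58 for KRT23, -0.65 for KRT34 and -0.79 for KRT10. KRT10 is the gene of these that is above background in every group of both lines, with mean changes of -0.50 in SNU398 and 0.29 in SNU475. The SNU398 changes cross sets of arrays on every day and those of SNU475 from day 10, so set and response cannot be told apart in them.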

How the results depend on the processing

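All 65 called keratin changes of at least 1 on the log2 scale kept their direction and call under median scaling, without background correction, without the filter, with the replicate block and with the deposited log2 values, and so did the 58 that could be tested with 1 probe per gene, the 35 within a line fitted on its own arrays and the 276 values with 1 array left out. Smaller calls moved more. Against untreated SNU475 the 43 calls over all days became 67 with the deposited values on the log2 scale and 26 without day 56. With 1 array left out, the counts ranged from 13 to 20 in HepG2 (19 with all arrays), from 2 to 9 in SNU398 (7), from 32 to 44 in SNU475 (43), from 40 to 42 between untreated lines (46), from 35 to 43 between treated days (43), from 14 to 22 for mean effects between lines (18) and from 19 to 25 for day 31 against day 24 and day 56 against day 31 (25). The lowest SNU398 count came without untreated replicate 1. Same-numbered arrays had deviations correlated from -0.14 to 0.18, which gives no clear sign of pairing but cannot exclude it. The replicate block gave 19, 8 and 43 calls in HepG2, SNU398 and SNU475 and 45 between untreated lines. It gave 43 between treated days, 20 for mean effects and 25 for the later SNU475 days. The KRT19 call in SNU475 at day 3 was lost with the block. Median scaling, the block and the deposited values turned the sign of 0 called keratins. Over all probes median scaling moved the share of calls that are higher to 69.3%, 71.1%, 69.2% and 78.3% in SNU398 at days 3, 10, 17 and 24, against 51.2%, 54.5%, 52.3% and 54.4% with quantile normalization. In SNU475 at days 10, 17, 24 and 31 the shares were 32.7%, 32.8%, 36.7% and 28.9%, against 54.6%, 56.6%, 51.6% and 51.8%. For mean effects they were 33.2%, 62.5% and 73.4%, against 48.3%, 49.8% and 51.3%, and the median of all probes shifted by 0.15 in SNU398 against SNU475. The cause was not tested.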
